A study of Homo sapiens with 4 samples.

Results

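Solute carriers are membrane proteins that move nutrients, ions, metals and metabolites into and out of cells and organelles, and they are the largest class of transporters in human cells. Plasma membrane carriers set the supply of glucose, amino acids, phosphate and zinc, the exchangers among them set cell volume and pH, and the mitochondrial carriers exchange nucleotides and iron across the inner membrane. Cancer cells are known for high levels of the glucose carrier SLC2A1 (GLUT1) and of the amino acid exchanger SLC7A5 (LAT1), which works as a pair with CD98. The members described here are all rows of the expression tables whose name is SLC or SLCO followed by a digit. The rule uses names alone, and was set with earlier results of these data known. There were 65 such rows among 4000 genes, of which 60 are carriers, 4 are antisense transcripts named after a carrier and 1, SLC9A3R2, is a scaffold protein of the sodium/proton exchanger NHE3. The 4000 genes carried 28.4% of all UMIs, and carriers outside them have no row here. Ranks and sums therefore hold for these rows and not for the whole family. Values per gene are given for the 51 members with at least 100 recovered UMIs over all cells (a UMI, or unique molecular identifier, marks 1 captured RNA molecule), 47 of them carriers. The other 14 held 392 UMIs in all, and were SLC25A34, SLC38A3, SLC26A7, SLC26A4, SLC28A2, SLC26A4-AS1, SLC26A8, SLC22A3, SLC24A5, SLCO2A1, SLC2A5, SLC22A9, SLCO1B1 and SLC9A3. The threshold fell between SLC35F1 with 104 UMIs and SLC25A34 with 99.

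The cells came from tumors grown in NSG mice, which lack mature lymphocytes, from the triple negative breast cancer cell line SUM149, carrying either a control shRNA (shCON) or an shRNA against CD9 (shCD9), and treated with vehicle or with JQ1, an inhibitor of BET bromodomain proteins, at 25 mg/kg for 30 days. The tables held 2272 vehicle and 3794 JQ1 cells of shCON tumors, and 2454 vehicle and 5199 JQ1 cells of shCD9 tumors. The authors' cell tables also gave each cell a state, assigned by scPred from training on the SUM149 cell line: 4_2 (called SCLED below), cluster 9, the resistant state (cR) or unassigned. The study named a stem cell-like state SCLED in the cell line, where it is a neighbouring subcluster of 4_2 within cluster 4. The label 4_2 is the one in these tables that comes from cluster 4, and SCLED stands here for cells labelled 4_2 alone. All 4 sample labels name JQ1 alone, whereas the cell tables hold vehicle cells as well, and line and treatment were therefore taken from the cell tables. Pools 1 and 2 held shCD9 cells and pools 3 and 4 shCON cells, so that line and pool cannot be told apart. No table names the tumor of a cell, and each group is 1 sample. No test between groups was therefore possible, the 95% intervals cover counting error only, and each pool's own value is given as the only view of spread. CD9 itself was not analysed here. The model is 1 cell line.

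Cells held 4070 to 79524 UMIs, with medians by group of 12605 to 18645.5 that were lower in both shCD9 groups, and 15 barcodes occurred in more than 1 pool over the 6 pairs of pools. Levels are given as CPM, a gene's UMIs per 1000000 UMIs of the same cells. All 10 epithelial markers in the tables were detected in every group, at 7590 to 10062 CPM in sum. The 14 stromal, endothelial and blood cell markers in the tables summed to 133 and 147 CPM in shCON cells with vehicle and JQ1, and to 303 and 265 CPM in shCD9 cells. None of the 14 was at 0 over all cells. The lowest were CDH5 and HBB, which mark endothelial and red blood cells, at 0.14 CPM or less in every group. HBA1, also of red blood cells, stood at 0.40 and 0.43 CPM in shCON and at 1.31 and 1.08 CPM in shCD9 cells. CD14 stood at 22.3 to 41.4 CPM, CD68 at 17.0 to 24.1 CPM and PTPRC at 1.80 to 4.65 CPM over the groups. The median mitochondrial share of UMIs was 6.01% and 5.78% in shCON cells and 7.94% and 8.49% in shCD9 cells. These measures differ between the lines together with the members described below, and their part in those differences was not tested. A lower level over all cells of a group can mean fewer cells with the RNA or less RNA per cell, and the levels by state and the shares of cells with a UMI are given for that reason.

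To show the regulatory sequence beside the values, the promoters of 6 members are printed: the 3 members with the highest ratio of SCLED to cR cells and the 3 with the highest ratio of cluster 9 to cR cells, among members with a ratio in all 4 groups and a promoter entry in RefSeq. They were picked for those ratios. Each run covers 250 bases before to 50 bases after the first start site that RefSeq lists, build GRCh38.p14, written 5′ to 3′ on the strand of the gene. Capitals mark a match on either strand to 1 of 5 motifs: the AP-1 motif TGANTCA, the ETS motif GGAAGT, the hypoxia motifs ACGTG and GCGTG, which can overlap, and the NF-kB consensus.
SLC44A4, chr6:31878948-31879247, minus strand: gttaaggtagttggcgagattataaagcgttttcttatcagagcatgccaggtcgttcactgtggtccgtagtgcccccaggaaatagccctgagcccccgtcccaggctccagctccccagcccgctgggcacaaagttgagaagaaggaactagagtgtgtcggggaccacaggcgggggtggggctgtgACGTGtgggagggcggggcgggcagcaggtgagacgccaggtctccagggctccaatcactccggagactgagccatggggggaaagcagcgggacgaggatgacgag
SLC34A2, chr4:25655601-25655900, plus strand: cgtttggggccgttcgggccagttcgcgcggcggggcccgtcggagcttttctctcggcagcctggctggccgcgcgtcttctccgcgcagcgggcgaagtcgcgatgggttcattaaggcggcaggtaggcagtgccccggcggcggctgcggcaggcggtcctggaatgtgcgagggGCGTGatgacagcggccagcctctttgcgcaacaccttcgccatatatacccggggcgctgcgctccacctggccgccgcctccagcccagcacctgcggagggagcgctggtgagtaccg
SLC5A1, chr22:32043011-32043310, plus strand: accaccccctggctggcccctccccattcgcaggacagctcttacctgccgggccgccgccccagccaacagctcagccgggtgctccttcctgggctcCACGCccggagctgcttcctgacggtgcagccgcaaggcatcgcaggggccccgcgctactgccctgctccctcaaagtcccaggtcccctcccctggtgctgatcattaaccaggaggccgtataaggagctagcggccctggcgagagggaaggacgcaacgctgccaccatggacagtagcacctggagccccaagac
SLC26A9, chr1:205943407-205943706, minus strand: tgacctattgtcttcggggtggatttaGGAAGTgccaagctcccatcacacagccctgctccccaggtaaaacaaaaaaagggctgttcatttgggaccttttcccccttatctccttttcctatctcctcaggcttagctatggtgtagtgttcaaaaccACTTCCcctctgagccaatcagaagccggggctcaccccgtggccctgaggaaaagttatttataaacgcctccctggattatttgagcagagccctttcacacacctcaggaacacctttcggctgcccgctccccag
SLC16A10, chr6:111087253-111087552, plus strand: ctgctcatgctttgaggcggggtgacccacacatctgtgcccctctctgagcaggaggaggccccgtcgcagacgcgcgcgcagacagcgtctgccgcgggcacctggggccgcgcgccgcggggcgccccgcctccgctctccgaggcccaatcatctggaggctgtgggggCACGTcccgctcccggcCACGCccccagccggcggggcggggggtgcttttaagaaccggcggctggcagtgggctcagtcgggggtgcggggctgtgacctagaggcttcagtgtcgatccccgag
SLC39A8, chr4:102345204-102345503, minus strand: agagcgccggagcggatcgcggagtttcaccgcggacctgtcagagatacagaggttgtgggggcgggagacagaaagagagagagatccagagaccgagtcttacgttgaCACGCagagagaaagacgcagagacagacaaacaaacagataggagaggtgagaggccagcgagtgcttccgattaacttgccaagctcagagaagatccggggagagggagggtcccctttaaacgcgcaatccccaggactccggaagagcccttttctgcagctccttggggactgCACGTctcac
The 3 promoters of SCLED-high members each held 1 match, to ACGTG in SLC44A4 and to GCGTG in SLC34A2 and SLC5A1. Among the cluster 9-high members, SLC26A9 held 2 ETS matches and neither hypoxia motif, and SLC16A10 and SLC39A8 held both ACGTG and GCGTG. Of the 27305 promoters in the table, 21.6% held ACGTG, 36.3% GCGTG, 23.2% GGAAGT, 7.76% TGANTCA and 5.72% the NF-kB consensus. Of the 42 members with an entry, 13 held ACGTG, 24 GCGTG, 5 GGAAGT, 4 TGANTCA and 1, SLC26A4, the NF-kB consensus. A match is a description of the letters in the window and not a site in use.

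Among the 65 rows, the members with the most UMIs were carriers of amino acids, glucose, zinc and iron and a water and ion transporter. In sum the 51 members held 1312 and 1278 CPM in the vehicle and JQ1 groups of shCON, and 1460 and 1519 CPM in those of shCD9. Of all 355229 UMIs of the 65 rows, 75.3% lay on 10 members. In order of UMIs, with no correction for gene length, these were SLC7A5, SLC4A11, SLC2A1, SLC25A4, SLC9A3R2, SLC39A6, SLC25A37, SLC12A2, SLC43A3 and SLC6A8. SLC7A5 (chr16:87830023-87869507, minus strand), which exchanges large neutral amino acids, stood at 206, 158, 147 and 133 CPM in the order shCON vehicle, shCON JQ1, shCD9 vehicle, shCD9 JQ1. SLC2A1 (chr1:42925353-42958893, minus strand) stood at 135, 130, 144 and 156 CPM in the same order. SLC25A4, the adenine nucleotide exchanger of mitochondria, stood at 116, 141, 145 and 136 CPM. SLC25A37 (mitoferrin 1, an iron carrier) stood at 74.4, 83.0, 81.7 and 77.2 CPM. Over all cells, these 4 carriers thus differed between the groups by less than 1.5-fold in each of the 4 comparisons of line and treatment.

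**Figure D1:**
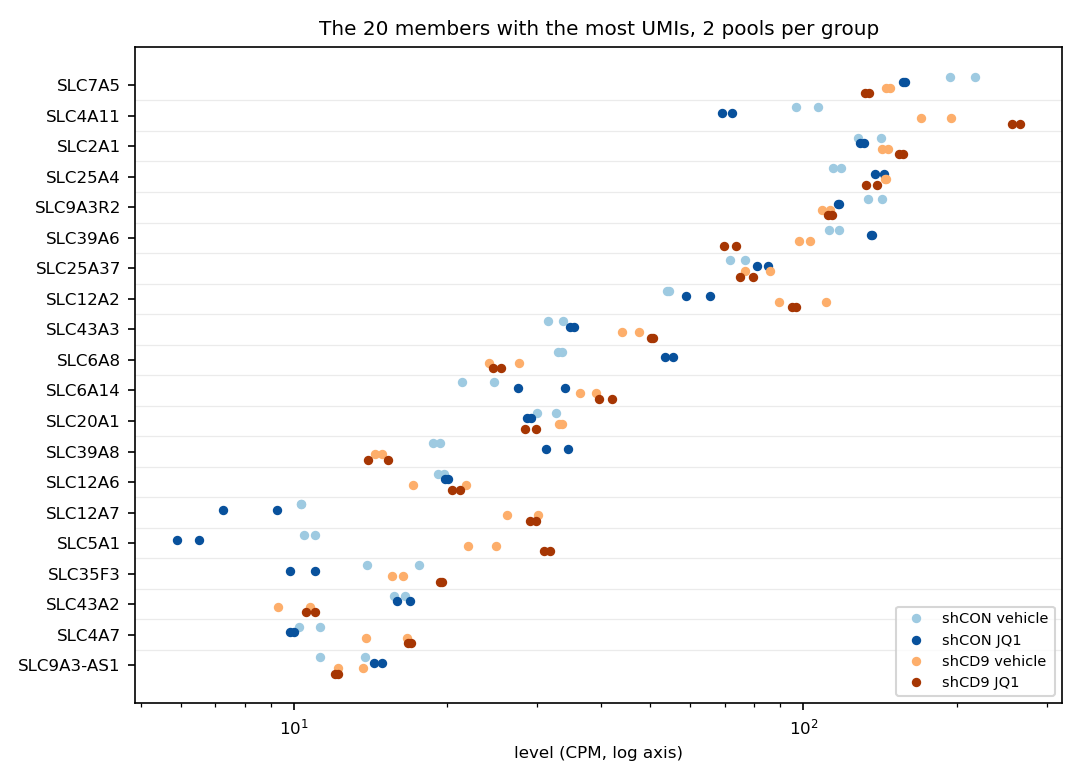
Level in CPM (log axis) of the 20 members with the most UMIs, with 1 point for each pool in each group of line and treatment. The points of the 2 pools of a group lie close together, while SLC4A11, SLC5A1 and SLC12A7 separate shCD9 from shCON cells and SLC39A8 and SLC6A8 separate shCON cells with JQ1 from the other 3 groups.

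The pools of a line differed little. Over the 36 to 42 members with 100 or more UMIs in a group, the median absolute log2 ratio between its pools was 0.14 (vehicle) and 0.07 (JQ1) for shCON, and 0.17 (vehicle) and 0.09 (JQ1) for shCD9. The same measure between groups was 0.30 for JQ1 against vehicle in shCON cells, 0.16 for JQ1 against vehicle in shCD9 cells, 0.49 for shCD9 against shCON with vehicle and 0.70 for shCD9 against shCON with JQ1. The JQ1 ratios in shCD9 cells were thus about as large as the differences between the shCD9 vehicle pools. SLC6A2 and SLCO4A1-AS1 differed by over 1.5-fold between the shCON vehicle pools, and SLC2A13, SLC7A8 and SLC16A10 between the shCON JQ1 pools. Where pools are said below not to overlap, the share of all genes with such pools is not given. Those statements describe the named members alone.

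The first comparison asks which carriers differ with JQ1 in tumors with the control shRNA. The aromatic amino acid carrier SLC16A10, the chloride transporter SLC26A9, the zinc carrier SLC39A8 and the creatine carrier SLC6A8 were higher with JQ1, and the amino acid exchanger SLC7A8 and the noradrenaline carrier SLC6A2 were lower. Past 1.5-fold were 13 of the 51 members (25.5%), 6 higher and 7 lower, against 18.0% of all 2668 genes tested (9.56% higher and 8.4% lower). Without cluster 9 cells 2 members were higher and 7 lower, with no share of all genes given for that setting. The median log2 ratio was -0.07 over the members and -0.04 over all genes tested, close to each other.

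SLC7A8 (LAT2, chr14:23125295-23183674, minus strand), a partner of CD98 like SLC7A5, stood at 26.5 and 24.8 CPM in the vehicle pools and at 8.87 and 13.3 CPM in the JQ1 pools. The pools of the 2 treatments did not overlap. The log2 ratio was -1.20 (95% interval -1.33 to -1.08), and -1.58 and -0.89 within pools 3 and 4. SLC7A8 lay mainly in unassigned cells, where it stood at 39.5 CPM with vehicle and 13.5 CPM with JQ1. SLC6A2 (NET) stood at 6.76 and 10.8 CPM in the vehicle pools and at 3.5 and 4.84 CPM in the JQ1 pools, a log2 ratio of -1.08 (-1.29 to -0.87).

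Among the carriers that were higher, SLC39A8 (ZIP8, chr4:102251080-102431258, minus strand), which takes up zinc and manganese, stood at 18.7 and 19.4 CPM with vehicle and at 34.5 and 31.3 CPM with JQ1. The log2 ratio was 0.79 (0.68 to 0.89). With SCLED, cR and unassigned cells given equal weight in each group it was 0.22, and the level within cR cells was lower with JQ1 (14.5 and 9.37 CPM). Cluster 9 cells, which were 0.968% of shCON vehicle cells and 5.19% of shCON JQ1 cells, held 34.3% of the SLC39A8 UMIs of shCON JQ1 cells. SLC6A8 (chrX:153687926-153696588, plus strand) stood at 33.6 and 32.9 CPM with vehicle and at 53.4 and 55.4 CPM with JQ1. Its log2 ratio was 0.71 (0.63 to 0.79), and 0.71 with equal weight. It was higher with JQ1 in every state, with log2 ratios of 0.95 in SCLED, 1.53 in cluster 9, 0.49 in cR and 0.72 in unassigned cells.

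SLC16A10 (TAT1) stood at 1.17 and 0.828 CPM with vehicle and at 3.2 and 2.03 CPM with JQ1, a log2 ratio of 1.39 (0.94 to 1.86). Without cluster 9 cells, which held 107 of its 209 UMIs with JQ1, it was 0.57, just short of the fold. SLC26A9 stood at 0.769 and 0.592 CPM with vehicle and at 1.51 and 1.44 CPM with JQ1, a log2 ratio of 1.12 (0.56 to 1.71). The JQ1 value of SLC26A9 rested on cluster 9 cells, which held 66.1% of its UMIs in that group, and without those cells the ratio was -0.14. The inositol carrier SLC2A13 (log2 ratio 0.92) and the glucose carrier SLC2A3 (0.73, from 77 UMIs with JQ1 and 29 with vehicle) completed the 6 that were higher. With states at equal weight SLC2A13 was at 0.46 and SLC2A3 at -0.32, and without cluster 9 cells SLC2A3 was at 0.25.

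The other members past the fold and lower with JQ1 were SLCO4A1-AS1 (log2 ratio -0.88), the citrate and succinate carrier SLC13A2 (-0.91), SLC44A4 of the choline carrier family (-0.86), the sodium/glucose cotransporter SLC5A1 (-0.79) and SLC35F3 (-0.59), reported to carry thiamine. SLC5A1 stood at 10.4 and 11.0 CPM in the vehicle pools and at 6.5 and 5.9 CPM in the JQ1 pools, without overlap. With states at equal weight its log2 ratio was -0.30 and that of SLC44A4 was -0.11, neither of them past the fold. SCLED cells were 5.72% of shCON cells with vehicle and 3.40% with JQ1.

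In shCD9 cells, fewer members differed with JQ1. Past 1.5-fold were 5 of 51, 1 higher and 4 lower (0 and 3 with states at equal weight, 5 and 3 without pool 2, 5 and 5 without cells with a collagen UMI), against 14.1% of 2664 genes tested (4.8% higher and 9.27% lower), and the median log2 ratio was 0.03 over the members and -0.01 over all genes tested. SLC44A4 was the member that was higher, at 4.90 and 4.57 CPM with vehicle and at 6.89 and 8.64 CPM with JQ1 in pools 1 and 2, a log2 ratio of 0.70 (0.47 to 0.94). With states at equal weight the ratio was 0.38. SLC7A2, a carrier of cationic amino acids, stood at 4.40 and 3.72 CPM with vehicle and at 2.25 and 2.55 CPM with JQ1, a log2 ratio of -0.76 (-1.06 to -0.46), and -0.29 with cells thinned to 4000 UMIs. SLC7A8 stood at 10.4 and 9.05 CPM with vehicle and at 6.04 and 6.93 CPM with JQ1, a log2 ratio of -0.59 (-0.78 to -0.40). Within pools 1 and 2 the ratio of SLC7A8 was -0.79 and -0.39, and with equal weight it was -0.39, short of the fold. The pools did not overlap for SLC44A4, SLC7A2 or SLC7A8. SLC26A9 (-0.65) and SLC2A3 (-0.89) rested on at most 35 UMIs a group, and their intervals, -1.41 to 0.12 and -1.90 to 0.12, included 0. The ratio of SLC26A9 was 0.09 with cells thinned to 4000 UMIs and 0.64 without the cells that carried a collagen UMI.

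Members short of the fold in shCD9 cells had values as follows. SLC39A6 (ZIP6, chr18:36108531-36129385, minus strand), a zinc carrier, stood at 103 and 98.0 CPM with vehicle and at 70.0 and 73.8 CPM with JQ1, a log2 ratio of -0.48 (-0.54 to -0.43). SLC4A11 stood at 170 and 195 CPM with vehicle and at 266 and 256 CPM with JQ1, a log2 ratio of 0.51 (0.48 to 0.55). SLC6A2 had a log2 ratio of -0.50, the potassium-dependent exchanger SLC24A3 -0.54, the zinc carrier SLC30A4 0.43, the sulfate carrier SLC26A2 0.42 and SLC13A2 0.50.

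**Figure D2:**
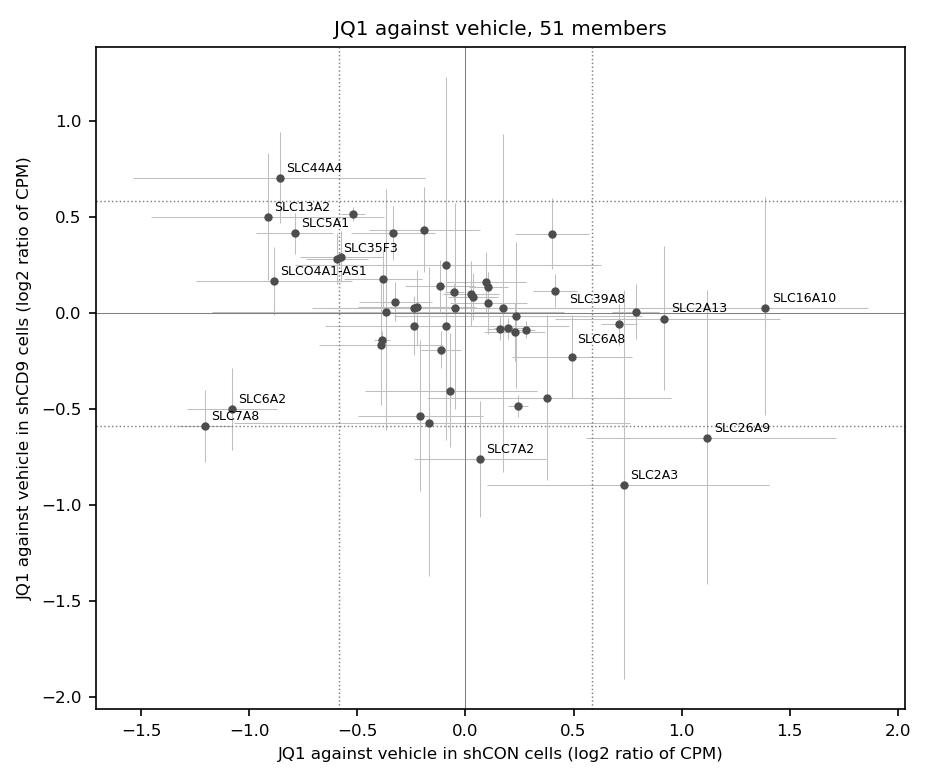
Log2 ratio of JQ1 to vehicle in shCON cells (horizontal) and in shCD9 cells (vertical) for the 51 members, with 95% counting intervals and dotted lines at 1.5-fold. SLC7A8 lies past the fold and lower in both lines, SLC44A4, SLC26A9 and SLC2A3 are past it with opposite signs, and SLC6A8, SLC39A8 and SLC16A10 are higher in shCON cells with values near 0 in shCD9 cells.

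Past 1.5-fold with JQ1 in both lines were 4 members. SLC7A8 was lower in both, SLC44A4 was lower in shCON and higher in shCD9 cells, and SLC26A9 and SLC2A3 were higher in shCON and lower in shCD9 cells. None of the 4 was past the fold in both lines under every alternative. SLC7A8 was at -0.39 in shCD9 cells at equal weight, and SLC44A4 at -0.11 in shCON and 0.38 in shCD9 cells. In shCON cells SLC26A9 was at -0.14 without cluster 9 cells and SLC2A3 at -0.32 at equal weight. Whether the JQ1 ratios differ between the lines could not be tested.

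The next comparison sets shCD9 against shCON cells with vehicle, and asks which carriers differ between the lines without JQ1. More members were higher than lower in shCD9 cells. SLC44A4 of the choline carrier family, the potassium/chloride cotransporter SLC12A7, the sodium/glucose cotransporter SLC5A1 and the water and ion transporter SLC4A11 were higher. The amino acid carriers SLC7A8 and SLC43A2 were lower. Past 1.5-fold were 24 of 51 (47.1%), 20 higher and 4 lower, against 36.0% of 2668 genes tested (23.5% higher and 12.5% lower). The median log2 ratio was 0.35 over the members and 0.07 over all genes tested. Members were put in classes by gene family, not by the substrate of each member. SLC6A2, SLC6A8 and SLC6A12 thus counted as amino acid carriers, SLC16A10 as a monocarboxylate carrier, and the SLC12 cotransporters and SLC24A3 as exchangers. Of the 10 members classed as bicarbonate, proton and chloride exchangers 6 were higher and 1 lower, and of the 7 sugar and monocarboxylate carriers 4 were higher. Of the 12 classed as amino acid carriers 3 were higher and 2 lower, and none of the 4 zinc carriers was past the fold over all cells.

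These ratios moved with the weight given to each state. SCLED cells were 5.72% of shCON and 22.6% of shCD9 cells with vehicle, and 3.40% and 31.4% with JQ1. With SCLED, cR and unassigned cells at equal weight, 14 of the 24 members stayed past the fold in the same direction, 6 had the opposite sign and 4 lay between, and the members' median moved from 0.35 to -0.06. By that measure 11 members were higher and 9 lower, and 33.3% of all genes tested were past the fold. The 6 with the opposite sign, all short of the fold at equal weight, were SLC4A11, SLC5A1, SLC34A2, SLC13A2, SLC6A14 and SLC28A3. Ratios at equal weight carry no interval, and their shCON side rests in part on 130 SCLED cells with vehicle and 129 with JQ1.

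SLC4A11 (chr20:3227417-3239559, minus strand) stood at 107 and 96.6 CPM in shCON pools 3 and 4 and at 170 and 195 CPM in shCD9 pools 1 and 2, without overlap. The log2 ratio was 0.85 (0.80 to 0.90) over all cells and -0.27 with equal weight. Within SCLED cells it stood at 660 CPM in shCON and 511 CPM in shCD9 cells, and within cR cells at 37.4 and 62.8 CPM. SLC5A1 (SGLT1, chr22:32043261-32113029, plus strand), whose promoter is printed above, stood at 10.4 and 11.0 CPM in the shCON pools and at 21.9 and 24.9 CPM in the shCD9 pools. Its log2 ratio was 1.13 (0.98 to 1.29) over all cells and -0.15 with equal weight, with 83.0 and 72.7 CPM within SCLED cells. The phosphate carrier SLC34A2 (NaPi-IIb) had log2 ratios of 0.82 over all cells and -0.33 with equal weight.

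Other members kept their direction. SLC12A7 (KCC4, chr5:1050384-1112063, minus strand) stood at 10.3 CPM in both shCON pools and at 26.2 and 30.1 CPM in the shCD9 pools, a log2 ratio of 1.45 (1.30 to 1.60), and 0.97 with equal weight. Within states its log2 ratios were 1.01 in SCLED, 0.70 in cR and 0.95 in unassigned cells, and 0.44 in cluster 9 cells from 11 and 4 UMIs, where the interval (-1.32 to 2.54) included 0. SLC12A2 (NKCC1), which brings sodium, potassium and chloride into cells, stood at 54.4 and 53.8 CPM in the shCON pools and at 89.7 and 111 CPM in the shCD9 pools, a log2 ratio of 0.90 (0.83 to 0.97), and 0.77 with equal weight. SLC44A4 (chr6:31863192-31879046, minus strand) stood at 0.688 and 0.986 CPM in the shCON pools and at 4.90 and 4.57 CPM in the shCD9 pools, a log2 ratio of 2.49 (2.01 to 3.01) from 42 UMIs in shCON and 199 in shCD9 cells. With equal weight the ratio of SLC44A4 was 0.79. The lactate and pyruvate carrier SLC16A7 (MCT2, log2 ratio 1.07) and the betaine carrier SLC6A12 (1.07) also kept their direction, at 0.84 and 0.96.

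Lower in shCD9 cells with vehicle were SLC7A8, SLC43A2, SLCO1A2 and SLC24A3. SLC7A8 stood at 26.5 and 24.8 CPM in the shCON pools and at 10.4 and 9.05 CPM in the shCD9 pools, a log2 ratio of -1.40 (-1.57 to -1.24), and -1.14 with equal weight. SLC43A2 (LAT4), a carrier of branched-chain amino acids, stood at 15.7 and 16.5 CPM in the shCON pools and at 9.30 and 10.8 CPM in the shCD9 pools, a log2 ratio of -0.68 (-0.85 to -0.51). SLC24A3 had a log2 ratio of -0.62, and the organic anion carrier SLCO1A2 (-0.75, -1.75 to 0.19) an interval that included 0. SLC7A5, at -0.49 (-0.53 to -0.44), and SLC39A8, at -0.38 (-0.53 to -0.24), fell short of the fold over all cells. With equal weight both were past it, at -0.63 and -0.86. The same held for SLCO1B3 (-0.11 over all cells and -1.31 with equal weight), SLC6A2 (-0.25 and -1.05) and SLC9A3R2 (-0.32 and -0.79). SLC7A2 (0.50 and 0.61) was past it and higher by equal weight alone.

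With JQ1, the lines differed at more members. Past 1.5-fold were 28 of 51 (54.9%), 19 higher and 9 lower in shCD9 cells, against 48.0% of 2669 genes tested (27.0% higher and 21.0% lower), and the median log2 ratio was 0.33 over the members and 0.05 over all genes tested. SLC44A4 stood at 0.328 and 0.595 CPM in the shCON pools and at 6.89 and 8.64 CPM in the shCD9 pools, a log2 ratio of 4.06 (3.58 to 4.58), and 1.27 with equal weight. SLC5A1 stood at 6.5 and 5.9 CPM and at 31.8 and 30.9 CPM, a log2 ratio of 2.34 (2.20 to 2.48), and 0.29 with equal weight. SLC4A11 stood at 69.2 and 72.4 CPM and at 266 and 256 CPM, a log2 ratio of 1.89 (1.84 to 1.93), and 0.34 with equal weight. The pools of the lines did not overlap for these 3. SLC13A2 (2.35) and SLCO4A1-AS1 (2.76) were also among the 5 highest, with 0.75 and 1.91 at equal weight.

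With equal weight, 19 of the 28 stayed past the fold in the same direction, 7 lay between, and SLC34A2 (1.69 over all cells and -0.32 with equal weight) and the zinc carrier SLC39A2 (0.91 and -0.01) had the opposite sign. By that measure 12 members were higher and 12 lower, and 42.2% of all genes tested were past the fold. Past it and lower by that measure alone were SLCO1B3 (-0.09 over all cells and -1.53 with equal weight) and SLCO1A2 (-0.41 and -2.07). So were SLC15A1 (-0.05 and -0.82) and SLC6A2 (0.33 and -0.69). SLC7A11 (-0.03 and 0.61) was higher, and had no UMI in SCLED cells of shCON with JQ1. SLCO1A2 and SLC15A1 held at most 45 UMIs in these groups. SLC12A7 was at 1.84 over all cells and 1.19 with equal weight, SLC26A2 at 1.55 and 1.17, and SLC35F3 at 0.90 and 1.14.

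The zinc importers SLC39A8 and SLC39A6 and the creatine carrier SLC6A8 were lower in shCD9 cells with JQ1 in every state, whereas the other zinc carriers, SLC39A2 and SLC30A4 (0.97 over all cells and 0.26 with equal weight), were past the fold and higher. SLC39A8 stood at 34.5 and 31.3 CPM in the shCON pools and at 15.3 and 13.9 CPM in the shCD9 pools, a log2 ratio of -1.16 (-1.26 to -1.06), with -1.16 within SCLED, -1.84 within cluster 9, -0.42 within cR and -1.42 within unassigned cells. SLC6A8 stood at 53.4 and 55.4 CPM and at 24.5 and 25.5 CPM, a log2 ratio of -1.12 (-1.20 to -1.05), with -1.21, -0.91, -1.20 and -0.82 in the same order of states. SLC39A6 stood at 136 CPM in both shCON pools and at 70.0 and 73.8 CPM, a log2 ratio of -0.92 (-0.97 to -0.88), with -1.19, -1.12, -0.68 and -0.73. For these 3 the pools of the lines did not overlap, and the share of all genes with such pools is not given. SLC26A9 (-1.80), SLC16A10 (-1.40), SLC2A3 (-2.07) and SLC24A3 (-0.94) were lower too, from at most 209 UMIs in a group for the first 3. Without cluster 9 cells SLC26A9 was at -0.48 and SLC16A10 at -0.52, both short of the fold. In that setting 19 members were higher and 6 lower, with no share of all genes given for it. SLC7A8 (-0.79) was lower over all cells and at -0.36 with equal weight.

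**Figure D3:**
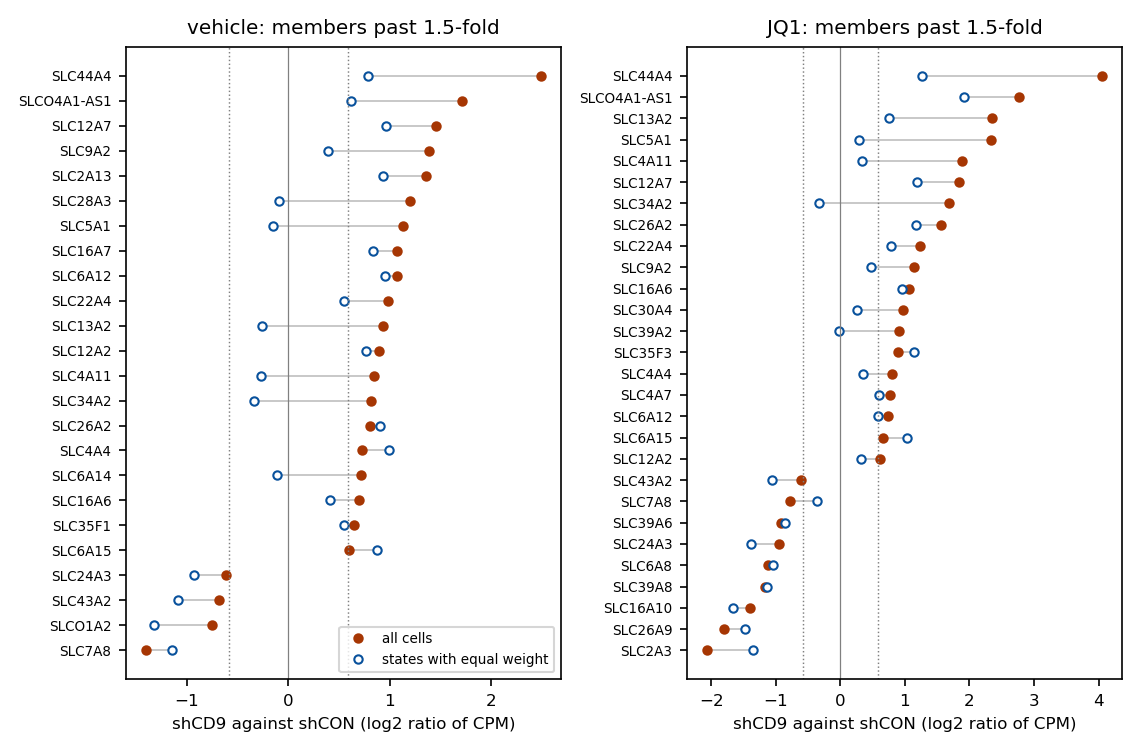
Members past 1.5-fold between shCD9 and shCON cells with vehicle (left) and JQ1 (right), as the log2 ratio over all cells (filled) and with SCLED, cR and unassigned cells at equal weight (open), with dotted lines at 1.5-fold. SLC4A11, SLC5A1 and SLC34A2 move to between -0.33 and 0.34, while SLC12A7, SLC26A2, SLC39A8 and SLC6A8 keep their direction.

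The stromal, endothelial and blood cell markers moved with the lines as well. The tumors grew in mice and counting was on the human genome, and the source of these UMIs (mouse cells, free RNA or the tumor cells) was not tested. Of the 12 with 100 or more UMIs, 9 were higher and 1 lower in shCD9 cells with vehicle, and 8 were higher and 1 lower with JQ1. COL1A1 stood at 29.2 and 28.2 CPM in shCON and at 82.6 and 63.6 CPM in shCD9 cells. A UMI of COL1A1, COL1A2 or COL3A1 was found in 33.8% and 32.8% of shCON cells and in 41.1% and 37.8% of shCD9 cells. Without those cells 25 members were past the fold with vehicle, 23 of them among the 24 found with all cells and in the same direction, and 31 with JQ1, 27 of them among the 28. The share of all genes past the fold without those cells is not given.

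The states showed the widest range of levels. Because scPred assigned the states from expression, the ratios between them are a description and were not tested. They were taken within each group of line and treatment and then averaged. Against cR cells, 34 of 50 members with a value were higher in SCLED cells and 4 lower, against 45.6% and 23.1% of 2628 genes (68.7% in either direction). In cluster 9 cells 19 of 42 with a value were higher and 4 lower, against 40.8% and 27.3% of 2151 genes (68.1% in either direction). Members and genes with too few UMIs in cluster 9 cells had no value and are left out of both shares. In unassigned cells 28 of 51 were higher and 1 lower, against 33.7% and 4.47% of 2664 genes (38.2% in either direction). The median log2 ratio over the members and over all genes was 1.20 and 0.43 in SCLED cells, 0.54 and 0.27 in cluster 9 cells and 0.61 and 0.35 in unassigned cells. The 51 members summed to 2280 CPM in SCLED, 1639 CPM in cluster 9, 1324 CPM in unassigned and 987 CPM in cR cells. The median mitochondrial share of UMIs was 9.25% in SCLED, 4.67% in cluster 9, 6.62% in unassigned and 7.01% in cR cells, and its part in the ratios was not tested.

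SCLED cells were marked by SLC44A4 of the choline carrier family, SLC34A2 (phosphate), SLC5A1 (glucose), SLC13A2 (citrate) and SLC4A11 (water and ions), carriers found at the surface of epithelia. SLC4A11 stood at 660, 519, 511 and 632 CPM in SCLED cells of the 4 groups in the order above, and at 37.4, 37.4, 62.8 and 82.1 CPM in cR cells. The mean log2 ratio was 3.48, with 2.94 the lowest of the 4 groups. SLC5A1 stood at 83.0, 70.1, 72.7 and 80.9 CPM in SCLED and at 2.53, 2.53, 4.10 and 6.88 CPM in cR cells, a mean log2 ratio of 4.38. SLC34A2 (chr4:25648011-25678748, plus strand) stood at 62.6, 64.4, 52.5 and 51.2 CPM in SCLED and at 2.13, 1.45, 2.11 and 2.73 CPM in cR cells, a mean log2 ratio of 4.80. In SCLED cells the 3 carriers thus kept a narrow range over the 4 groups.

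SLC44A4 had the highest mean, 4.99, and its values in shCON cells rested on 3 UMIs in cR cells of each treatment, with intervals of 4.35 to 8.42 and 4.53 to 8.61. SLC13A2 had a mean of 3.91. The organic anion carrier SLCO1B3 (3.13) and the neutral and cationic amino acid carrier SLC6A14 (3.07) were higher in SCLED cells of all 4 groups, as was SLCO4A1-AS1 (3.36). Lower in SCLED cells were SLC7A8 (-2.42), the neutral amino acid carrier SLC6A15 (-2.01), SLC7A2 (-0.88) and the cystine/glutamate exchanger SLC7A11 (-0.74), all of them amino acid carriers. SLC7A11 was at 0.08 in shCON cells with vehicle, and had no UMI in SCLED cells of shCON with JQ1, where 3 UMIs were put in its place. SLC6A15 and SLC7A8 rested on 1 to 5 UMIs in SCLED cells of shCON, and for SLC7A2 the interval excluded 0 in 1 of the 4 groups. By the same classes of gene family, 9 of the 10 bicarbonate, proton and chloride exchangers were higher in SCLED cells. Of the 12 classed as amino acid carriers 5 were higher and 4 lower, and of the 4 zinc carriers 3 were higher.

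Cells with a UMI were counted after thinning each cell to 4000 UMIs, which kept every cell. SLC4A11 was found in 78.0% of 2444 SCLED cells, 15.4% of 4365 cR cells and 6.71% of 328 cluster 9 cells, against 93.0%, 31.2% and 20.4% without thinning. SLC5A1 was found in 24.5%, 1.49% and 1.22% of the same cells (52.4%, 4.95% and 3.35% without thinning). Free RNA in droplets gives UMIs in cells that do not express a gene, and the SLC5A1 shares in cR and cluster 9 cells cannot be told apart from that. Median totals per cell were 11357 to 21226 over the states and groups. SLC7A5 was found in 42.6%, 40.8% and 26.2% of SCLED, cR and cluster 9 cells. Over all cells, the 5% of cells with the most SLC7A5 UMIs held 28.0% of them after thinning, against 41.7% for SLC4A11 and 50.0% for SLC12A2, whose highest cell held 42 SLC12A2 UMIs among its 4000.

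**Figure D4:**
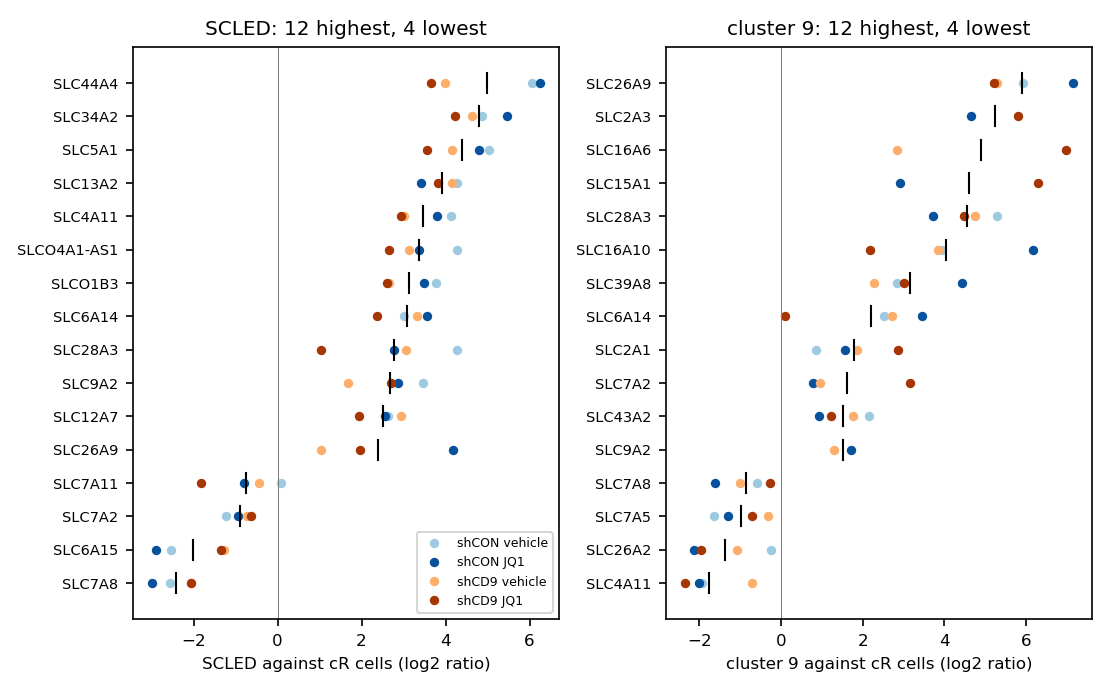
Log2 ratio of SCLED (left) and cluster 9 (right) to cR cells for the 12 members with the highest and the 4 with the lowest mean, with 1 point for each group of line and treatment and a black line at the mean. For SLC4A11, SLC5A1 and SLC34A2 all 4 groups lie above 2 in SCLED cells, and SLC4A11 lies below 0 in cluster 9 cells of all 4 groups.

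Cluster 9 cells carried other members. There were 22, 197, 52 and 57 of them in the groups in the order above, so that low levels rest on few UMIs. SLC39A8 stood at 104, 204, 45.3 and 57.0 CPM in cluster 9 cells of the 4 groups and at 14.5, 9.37, 9.31 and 7.01 CPM in cR cells, a mean log2 ratio of 3.15. Of the 9 stromal, endothelial and blood cell markers with a value, 7 were higher and none lower in cluster 9 than in cR cells, and their part in these ratios was not tested. Of the 328 cluster 9 cells 187 carried a UMI of SLC39A8, and the highest cell held 2.43% of its UMIs there. SLC2A1, the glucose carrier, stood at 175, 273, 295 and 650 CPM in cluster 9 and at 95.7, 92.7, 80.4 and 89.7 CPM in cR cells, a mean log2 ratio of 1.79. Without the highest cell, the 650 CPM in shCD9 cells with JQ1 was 537 CPM. SLC16A10 stood at 24.2 CPM in cluster 9 cells of shCON with JQ1, from 107 UMIs in 30 cells, and elsewhere at 4.77 to 12.1 CPM from 4 or 5 UMIs in 2 cells.

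SLC26A9 (chr1:205913048-205943460, minus strand) had the highest mean log2 ratio of cluster 9 to cR cells, 5.90. It rested on 98 UMIs in 48 of the 328 cells and on 1 to 4 UMIs a group in cR cells, where a count under 3 was set to 3. The nucleoside carrier SLC28A3 (4.56) was found in 43 of the 328 cells. SLC2A3 (5.24), the monocarboxylate carrier SLC16A6 (4.91) and the peptide carrier SLC15A1 (2.91 and 6.30 in its groups) had a ratio in 2 groups each, and were found in 13, 8 and 12 of the cells. Groups where cluster 9 cells held under 3 UMIs of these members gave no ratio, so that the values leave out the groups with the lowest counts. In shCD9 cells with JQ1, 1 cell held all 6 UMIs of SLC2A3, and 1 of 2 cells held 20 of 21 UMIs of SLC7A2. Lower in cluster 9 cells were SLC4A11 (-1.76), SLC26A2 (-1.36), SLC7A5 (-0.99) and SLC7A8 (-0.86). SLC4A11 stood at 9.70, 9.26, 38.2 and 16.1 CPM and SLC7A5 at 67.9, 57.6, 111 and 79.3 CPM in cluster 9 cells of the 4 groups. SLC44A4 and SLC13A2 had no UMI in cluster 9 cells, where 3 UMIs would be 0.46 CPM, and the exact Poisson upper limit was 0.569 CPM.

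In unassigned cells the highest mean log2 ratios were those of SLC35F1 (1.73), SLC26A9 (1.63), SLC12A7 (1.41) and SLC2A3 (1.30), and all but SLC12A7 rested on 1 to 6 UMIs a group in cR cells. SLC12A7 was higher in each group, by 0.90 to 1.87. SLC39A2 (-0.78) was the member past the fold and lower, and SLC3A1 (-0.45), SLC9A3-AS1 (-0.31) and SLC7A2 (-0.25) followed. SLC7A8 was higher in unassigned cells of all 4 groups, at 39.5, 13.5, 14.7 and 12.6 CPM against 10.9, 8.96, 7.2 and 4.45 CPM in cR cells, with log2 ratios of 0.59 to 1.86. Of the 12 stromal, endothelial and blood cell markers, 9 were higher and none lower in unassigned than in cR cells, and their part was not tested.

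**Figure D5:**
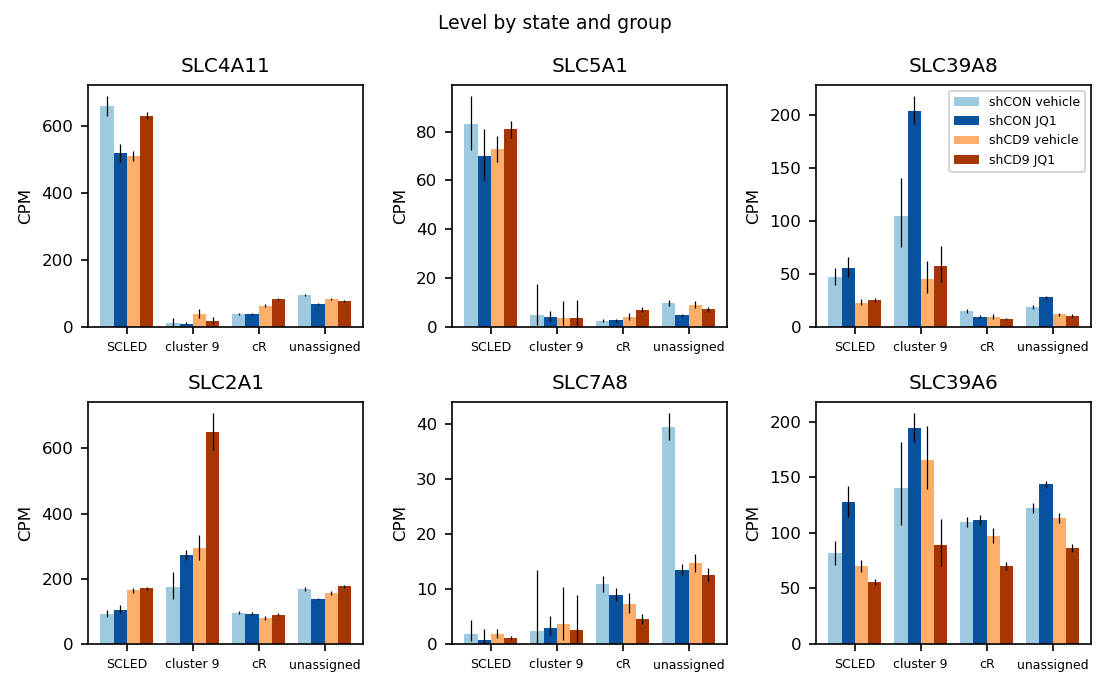
Level in CPM of 6 members by state (horizontal) and by group of line and treatment (color), with 95% Poisson intervals. SLC4A11 and SLC5A1 are highest in SCLED cells of every group, SLC39A8 and SLC2A1 in cluster 9 cells of every group (for SLC2A1 in shCON vehicle by 175 against 168 CPM in unassigned cells), and SLC7A8 in unassigned cells.

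Lists of genes that work with carriers or respond to the same supplies were set beside them. Of 5 carrier partner proteins in the tables (CD44, CA2, CA9, CA12 and EZR), none was past the fold in either JQ1 comparison or between the lines with vehicle, 2 were lower in shCD9 cells with JQ1, 1 was higher and 3 lower in SCLED cells, and all 5 were higher in cluster 9 cells. Of 15 hypoxia and glycolysis genes, 14 were higher in cluster 9 cells against cR cells, 4 were higher and 2 lower in SCLED cells, 2 were higher in shCON cells with JQ1 and none was past the fold in shCD9 cells with JQ1. Of 9 amino acid response genes, ATF3 and STC2 were higher with JQ1 in shCON cells and ATF3, SESN2 and STC2 were lower in shCD9 cells, while 6 were higher and 1 lower in cluster 9 cells. Of 11 metal binding genes, 8 were higher in cluster 9 and 3 higher and 2 lower in SCLED cells. Of 20 ion pumps and channels, 12 were higher and 2 lower in SCLED cells, 5 were higher in shCD9 cells with vehicle and 8 higher and 2 lower with JQ1. Of 9 NRF2 target genes, 1 was higher and 3 lower in SCLED cells and 4 were higher and 1 lower in cluster 9 cells. The shares of all genes past the fold given above are the background for these counts.

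Some members share reads with others or lie over another gene in GENCODE release 44, and whether the counting used strand is not given in the sources used here. SLCO4A1-AS1 (chr20:62663019-62666724, minus strand) lies over SLCO4A1, SLC9A3-AS1 over SLC9A3 and SLC25A25-AS1 over SLC25A25, each on the opposite strand, and their values are uncertain for that reason. Of the 51 members, 30 overlap a gene on the opposite strand, among them SLC44A4, SLC6A8, SLC13A2, SLC26A2, SLC35F3, SLC24A3, SLC30A4, SLC28A3 and SLC7A11, and without strand reads from the pair cannot be told apart. SLCO1B3 overlaps the readthrough gene SLCO1B3-SLCO1B7 on its own strand. SLC2A3, SLC6A8 and SLC7A5 have near-identical copies elsewhere in the genome, with which reads can be shared.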

How the data were processed

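Single-cell RNA was captured from dissociated SUM149 tumors in 4 pools. Per the labels and the study's methods, the authors counted UMIs with Cell Ranger 6.0.0 on GRCh38, introns included, and deposited for each pool a cell by gene table of normalized signal values over 4000 genes, scaled to a common total per cell, beside a table of line, treatment and scPred state per cell. The signal value of 1 UMI in a cell was its smallest positive value, and dividing by it gave whole numbers for 100% of positive values (tolerance 0.05), with a common total of 15070. The 4000 genes carried 28.4% of all UMIs, and each cell's total followed from that scale.

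Here the recovered counts were summed by group, pool and state and given as CPM of all UMIs, with exact Poisson intervals, and ratios with conditional exact binomial intervals, both at 95%. A count under 3 UMIs was set to 3 in a ratio. No ratio was given where both sides were under 3, or where a side set to 3 came out as the higher one. A mean over groups can therefore leave out groups where a member was low or absent in a state with few cells. Past the fold means a ratio of 1.5 or more in either direction. Each group of line and treatment was 1 sample, so no p-value was computed. A count model on these reads would likewise have had no replicate. State ratios were taken against cR cells within each group and averaged where at least 2 groups gave one. Equal weight means the mean of the levels in SCLED, cR and unassigned cells. For shares of cells with a UMI, each cell was thinned to 4000 UMIs. Doublets were treated as the deposited tables left them, and no caller was run. Ratios were tried before use on simulated counts with a single rate per gene in each group. Those counts lack the unevenness between cells seen here, and so cannot show how well the intervals cover these data.

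Named with values were, for each comparison, the 5 highest and 5 lowest members with 100 or more UMIs in the higher group, for each state the 4 highest and 4 lowest, the 10 members with the most UMIs, and members past the fold with JQ1 in both lines. Other members in the text were chosen after their values were seen. Members, lists and tests were chosen with earlier results of these data known. Positions are from GENCODE release 44 and promoters from RefSeq (GRCh38.p14). Analyses used pandas 2.3.3, scipy 1.17.1, numpy 2.4.6 and matplotlib 3.10.9 under Python 3.11.15. The number of mice differs between the labels and the study's methods and was not used.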

Additional observations from a re-analysis of the deposited data

Results flagged for a closer look

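Listed here are the members, among those with 100 or more UMIs, whose JQ1 ratio lay on one side of 0 in pools 3 and 4 (shCON) and on the other side in pools 1 and 2 (shCD9). The differences were not tested. The rule sets no least size, and the share of all genes that meets it is not given, so the list describes these members alone. Each value is the log2 JQ1 ratio in shCD9 cells minus that in shCON cells. It was positive for SLC44A4 (1.56), SLC13A2 (1.41), SLC5A1 (1.21), SLCO4A1-AS1 (1.05), SLC4A11 (1.04), SLC35F3 (0.88), SLC34A2 (0.87), SLC26A2 (0.75), SLC30A4 (0.63), SLC39A2 (0.56), SLC9A3R2 (0.27), SLC4A7 (0.26) and SLC22A4 (0.25). It was negative for SLC26A9 (-1.77), SLC2A3 (-1.63), SLC7A2 (-0.83), SLC28A3 (-0.82), SLC39A6 (-0.73), SLC25A4 (-0.36), SLC9A3-AS1 (-0.33) and SLC25A37 (-0.24). Of these 21, SLC44A4, SLC26A9 and SLC2A3 were past 1.5-fold in both lines. SCLED cells made up 5.72% (vehicle) and 3.40% (JQ1) of shCON cells and 22.6% and 31.4% of shCD9 cells, and the part of that mix in these differences was not tested.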

How the results depend on the processing

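The alternatives without cluster 9 cells and without cells with a collagen UMI were chosen after seeing the data. Of the counts of members past the fold and the summed levels, 68 values stayed within the limits set for no change and 25 did not. With a log2 threshold of 0.32 in place of 0.58, 25 members were past it with JQ1 in shCON and 17 in shCD9 cells, and at 2-fold 4 and 0. At 2-fold, 10 members were past it between the lines with vehicle, 16 with JQ1 and 10 between unassigned and cR cells. Apart from states at equal weight, shares of all genes are not given for the settings in this section. The counts of members at those settings therefore have no background beside them. The JQ1 count of 5 in shCD9 cells was 10 with no filter on UMIs, 3 at 300 UMIs, 3 with states at equal weight, 10 without cells with a collagen UMI, and 4 to 8 leaving out a pool, with 8 when pool 2 was left out. Without SLC7A5, the log2 ratio of the summed level was 0.019 and 0.077 for JQ1 in shCON and shCD9 cells, and 0.25 and 0.31 between the lines with vehicle and JQ1, against -0.04, 0.06, 0.15 and 0.25 with it. Leaving out a pool, these ran from -0.053 to -0.021, 0.011 to 0.11, 0.11 to 0.19 and 0.24 to 0.26. With states at equal weight, signs were opposite for SLC2A3 with JQ1 in shCON cells (-0.32), for SLC13A2 (-0.26), SLC4A11 (-0.27), SLC5A1 (-0.15), SLC34A2 (-0.33), SLC28A3 (-0.095) and SLC6A14 (-0.11) between the lines with vehicle, and for SLC39A2 (-0.013) and SLC34A2 (-0.32) with JQ1. SLC26A9 changed sign with JQ1 in shCON cells without cluster 9 cells (-0.14), and in shCD9 cells when thinned (0.087) or without cells with a collagen UMI (0.64). SLC4A4, a sodium and bicarbonate cotransporter, ran from -0.0043 without pool 2 to 1.17 without pool 1 between the lines with vehicle. The causes of these changes were not tested. No paired test was run, because the tumor of each cell is not named. Each pool held vehicle and JQ1 cells of 1 line, so JQ1 ratios could be read within pools and ratios between lines could not.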
